A study of Mus musculus with 2 samples.

Results

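Genes of apolipoproteins and lipid handling were followed in 3 kinds of myeloid cell from the mouse peritoneal cavity. The genes were Apoe, Apoc1, Apoc2, Apoc4, Lpl, Abca1, Abcg1, Fabp4, Fabp5 and Plin2, 10 of the 28692 genes counted, and each was found by its symbol (2 gene identifiers carry the symbol Apoc2, as described with that gene). They were selected on their levels across these cells in both libraries, so every level and ratio of theirs given here is a description and carries no test. Cells of the peritoneal cavity came from germ-free C57BL/6 male mice of 10 weeks, and single-cell 3′ RNA libraries counted unique molecular identifiers (UMIs), 1 per captured RNA molecule. One library was from wild-type (WT) mice. The other was from Xbp1dIEC mice, which lack Xbp1 in the epithelium of the intestine, where this factor serves the response to endoplasmic reticulum stress. The profiled cells are therefore not the cells that carry the deletion, so Xbp1 in them is no check of the labels, and what drives the deletion is not given in the labels. Each library pooled equal cell numbers of 4 mice and 8700 cells were encapsulated, so the spread between mice cannot be seen, no difference between genotypes has a replicate check, and all 95% intervals cover counting error only.

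Apolipoproteins are the protein coats of lipoprotein particles. Macrophages secrete apolipoprotein E, which takes up cholesterol exported by the membrane pumps ABCA1 and ABCG1, whereas lipoprotein lipase releases fatty acids from triglyceride-rich particles. Fatty acids taken up are carried in the cytosol by the fatty acid binding proteins FABP4 and FABP5, and stored lipid droplets are coated by perilipin 2, encoded by Plin2. The resident macrophages of the peritoneal cavity are mainly large macrophages that depend on the transcription factor GATA6, beside smaller populations that include Folr2-positive macrophages and MHC class II-high cells that express the lectin gene Cd209a.

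Cells were sorted in silico by UMIs of a few marker genes. Large macrophages had 2 or more UMIs of Gata6 and Timd4 together, 1649 in WT and 1534 in Xbp1dIEC. Folr2/Retnla macrophages had at least 1 UMI of each of those genes and 4 or more together, 187 in WT and 216 in Xbp1dIEC. Cd209a cells had 2 or more Cd209a UMIs, 91 in WT and 97 in Xbp1dIEC. Cells with 3 or more lymphoid UMIs or meeting more than 1 gate were left out, and 1825 WT and 1953 Xbp1dIEC cells were in none of the myeloid, B cell or T cell gates. The median large macrophage had 10012 UMIs in WT and 7910.5 in Xbp1dIEC, so shares of cells are given after thinning each cell to 2000 UMIs, which every cell had. In all, the files held 56229330 UMIs over 6204 barcodes for WT and 49703442 over 6246 for Xbp1dIEC, and 58 barcode sequences occurred in both.

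The gates were checked on fixed marker lists. The list of 10 large macrophage genes (Gata6 and Timd4, which the gate used, and Icam2, Selp, Prg4, Fcna, Alox15, Adgre1, Cd5l and Garnl3) summed to 7960 and 7790 CPM (UMIs per 1000000 UMIs of the gate) in large macrophages of WT and Xbp1dIEC, with every gene detected. It summed to 4900 and 5010 CPM in Folr2/Retnla macrophages and to 1710 and 1590 CPM in Cd209a cells, so both smaller gates carried large macrophage genes too. Markers of other cells known for these lipid genes were at or near 0 in the 3 gates, apart from the endothelial list. That list summed to 10.2 CPM in WT Cd209a cells, with Cdh5, Gpihbp1 and Emcn at 0 UMIs, and elsewhere in these gates to at most 2.81 CPM. The adipocyte list summed to at most 1.42 CPM, with Adipoq, Cidec and Cfd at 0 UMIs, the hepatocyte list to at most 0.549 CPM, with Alb, Apoa1 and Ttr at 0, the mesothelial list to at most 1.40 CPM, and the fibroblast list to 0. The cell cycle list differed between the libraries, at 389 CPM in WT and 194 in Xbp1dIEC large macrophages, and at 856 and 596 CPM in Folr2/Retnla macrophages. The Cd209a cell list was also higher in WT Folr2/Retnla macrophages, at 1610 against 864 CPM. For some of the genes below, ratios recomputed without such cells are given.

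Apoe was highest in Folr2/Retnla macrophages, then in large macrophages, then in Cd209a cells, in both libraries. In WT it stood at 11200, 7740 and 4190 CPM, and in Xbp1dIEC at 16800, 9490 and 3940 CPM. The Folr2/Retnla level was above the large macrophage level by 0.53 (WT) and 0.83 (Xbp1dIEC) on the log2 scale of CPM + 1. Apoe was present in nearly every macrophage: 99.1% of WT and 99.7% of Xbp1dIEC large macrophages had an Apoe UMI among 2000, and in WT 99.9% had one before thinning. B cells, which should lack Apoe, were taken as its background. There Apoe reached 678 CPM in WT and 610 in Xbp1dIEC, and 63.1% and 56.9% of B cells had an Apoe UMI among 2000, at a median depth of 5691.5 and 6571.5 UMIs (89.8% and 89.3% before thinning). The amount per cell, more than its presence, set macrophages apart. The median large macrophage had 11 Apoe UMIs of 2000 in WT and 13 in Xbp1dIEC, the median Folr2/Retnla macrophage 15 and 25, and the median B cell 1 in each.

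**Figure D1:**
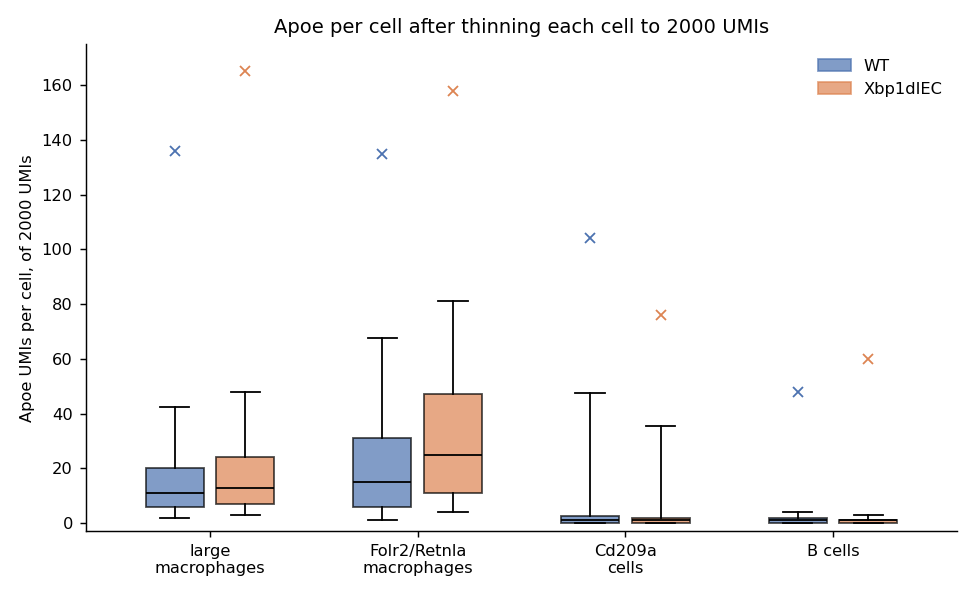
Apoe UMIs per cell after thinning to 2000 UMIs, by gate and library; boxes span the quartiles, whiskers the 5th to the 95th percentile, lines mark the medians and crosses the highest cell. Medians of both macrophage gates lie above those of Cd209a and B cells, which are 1. The upper whisker of Cd209a cells reaches 47.5 in WT and 35.4 in Xbp1dIEC, within the range of macrophages.

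Apoe was higher in the Xbp1dIEC library in both macrophage gates. As a log2 ratio to WT, the Xbp1dIEC level was 0.30 (0.28 to 0.31) in large macrophages and 0.59 (0.56 to 0.61) in Folr2/Retnla macrophages. In Cd209a cells it was -0.09 (-0.16 to -0.01), and it ranged from -1.57 with the gates applied to thinned counts to 0.60 in the cells of that gate with few large macrophage genes, whose Apoe was near the B cell level. Without cells that had 2 or more cell cycle UMIs, the ratio was 0.24 in large and 0.40 in Folr2/Retnla macrophages, and without Folr2/Retnla cells that carried Cd209a cell genes it was 0.55. The cells in no gate held 37.3% of all Apoe UMIs in WT and 48.7% in Xbp1dIEC, and their ratio was 0.70 (0.69 to 0.71), so much of the Apoe RNA lay outside the gates.

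Among large macrophages, cells rich in Apoe were poor in cell cycle genes. In each library the cells with the most Apoe per 2000 UMIs were set against equally many with the least, 412 at each end in WT (median 29.5 and 4 UMIs) and 383 in Xbp1dIEC (34 and 5). Before thinning the Apoe-rich cells were deeper, with a median of 10037 against 8746.5 UMIs in WT and 8552 against 6111 in Xbp1dIEC. The cell cycle list was lower in the Apoe-rich cells by a log2 ratio of -1.53 (-1.83 to -1.23) in WT and -2.22 (-2.72 to -1.74) in Xbp1dIEC. The Folr2/Retnla list was higher there, by 0.94 (0.82 to 1.06) and 0.62 (0.50 to 0.75). Plin2 was also higher, by 0.63 (0.38 to 0.88) and 0.92 (0.65 to 1.18), whereas Lpl differed by -0.16 in each library, with intervals that include 0. Abca1 stood in WT at -0.13 (-0.75 to 0.49) but lower in Apoe-rich cells of Xbp1dIEC at -0.98 (-1.63 to -0.36), and that difference between the libraries was not tested.

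Apoe lies in a cluster of apolipoprotein genes that spans 27610 bases of chromosome 7, all on the minus strand of GRCm38 in the GENCODE vM21 annotation. Apoc2 is at chr7:19671579-19677941, Apoc4 at chr7:19678083-19681479, Apoc1 at chr7:19689481-19692660 and Apoe at chr7:19696109-19699188. ApoC-I and apoC-II are small exchangeable apolipoproteins, and apoC-II is the activator of lipoprotein lipase. The 4 neighbours did not share 1 pattern across the gates.

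Apoc1 was highest in large macrophages, at 89.5 CPM (85.1 to 94.2) in WT and 124 (118 to 131) in Xbp1dIEC. Folr2/Retnla macrophages had 19.1 and 15.4 CPM and Cd209a cells 17.4 and 26.7 CPM, each with overlapping intervals between the libraries. Large and Folr2/Retnla macrophages stood in the reverse order for Apoe: the log2 ratio of large over Folr2/Retnla macrophages was 2.17 (1.73 to 2.64) in WT and 2.94 (2.43 to 3.49) in Xbp1dIEC. Apoc1 was found in a minority of large macrophages. In WT, 9.64% (8.26 to 11.2) of these cells had an Apoc1 UMI among 2000, against 0.547% of B cells, and 18.4% before thinning, yet single cells held up to 44 UMIs before thinning. The 102 WT cells with 5 or more UMIs held 75.8% of the Apoc1 UMIs of the gate, and in Xbp1dIEC 109 such cells held 80.9%.

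These Apoc1-rich large macrophages were compared with the cells that had no Apoc1 UMI, of much the same depth (median 10282 against 10014 UMIs in WT, 7706 against 7974.5 in Xbp1dIEC). They had less Apoe, by -0.19 (-0.23 to -0.16) in WT and -0.54 (-0.58 to -0.50) in Xbp1dIEC. The genes among the 30 highest ratios in both libraries, picked after their values were seen, included Lyve1, a hyaluronan receptor, at 1.68 and 1.06. They also included Fscn1, which bundles actin, at 1.32 and 1.17, and Vsig4, a complement receptor of resident macrophages, at 0.92 and 1.03. Apoc1 was also lower where Apoe was high: in the Apoe-rich cells its log2 ratio was -1.03 (-1.57 to -0.51) in WT and -1.06 (-1.53 to -0.61) in Xbp1dIEC. Between the libraries, Apoc1 in large macrophages had a log2 ratio of 0.47 (0.36 to 0.57), 0.34 without cycling cells and 0.30 where clusters replaced the gate.

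Within large macrophages, Apoc4 took the opposite course to Apoc1 and was higher where Apoe was high. It was at 18.4 CPM (16.4 to 20.6) in WT and 30.4 (27.4 to 33.6) in Xbp1dIEC large macrophages, a log2 ratio of 0.69 (0.48 to 0.90). Folr2/Retnla macrophages had 16.6 CPM (11.5 to 23.3) and 45.0 (35.8 to 55.8), a ratio of 1.38 (0.81 to 1.97). Those are 34 UMIs in WT and 82 in Xbp1dIEC, and without cycling cells the ratio was 2.00. In Cd209a cells it was at 8.70 and 5.62 CPM, from 6 and 4 UMIs. Apoe-rich large macrophages held more Apoc4 than Apoe-poor ones, by 1.73 (0.73 to 2.80) in WT and 2.92 (1.70 to 4.28) in Xbp1dIEC. Over all large macrophages the rank correlation of Apoe with Apoc4 was weak, with Spearman rho of 0.0927 in WT and 0.126 in Xbp1dIEC.

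The higher Apoc4 level in Xbp1dIEC lay in few cells. Large macrophages with 3 or more Apoc4 UMIs numbered 24 in WT and 38 in Xbp1dIEC, and they held 99 of 311 and 208 of 371 Apoc4 UMIs of the gate. The share of large macrophages with any Apoc4 UMI was 3.82% (2.95 to 4.86) in WT and 3.39% (2.54 to 4.42) in Xbp1dIEC after thinning, and 12.3% and 10.8% before, from which no order is read. Of B cells, 0.243% and 0.215% had one after thinning. Among Folr2/Retnla macrophages, 3 cells in WT and 10 in Xbp1dIEC had 3 or more UMIs. The Apoc4-rich large macrophages had 19100 CPM of Apoe against 7240 in cells without Apoc4 in WT, and 18800 against 8980 in Xbp1dIEC. They were also deeper, with a median of 11178 against 9922 UMIs in WT and 9218 against 7790.5 in Xbp1dIEC. Among the 30 highest ratios in both libraries, listed after their values were seen, were Slpi, a secreted protease inhibitor, at 1.11 and 1.13, and Pltp, the phospholipid transfer protein of plasma lipoproteins, at 0.82 and 0.88. H2-Ab1 and Cd74 of class II presentation were there as well, at 1.22 and 0.69, and at 0.72 and 1.53. Apoc1 and Apoc4 did not go together in large macrophages. There 11.8% of WT cells with Apoc1 and 12.4% of the others had an Apoc4 UMI, and in Xbp1dIEC 10.6% and 10.9%. Folr2/Retnla macrophages leaned the other way, with Spearman rho of Apoc1 with Apoc4 of 0.14 in WT and 0.144 in Xbp1dIEC. In Xbp1dIEC, 29.2% of Folr2/Retnla macrophages with Apoc1 and 16.7% of the others had an Apoc4 UMI. The order was the same in WT, and only 4 WT and 7 Xbp1dIEC cells of that gate had both.

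**Figure D2:**
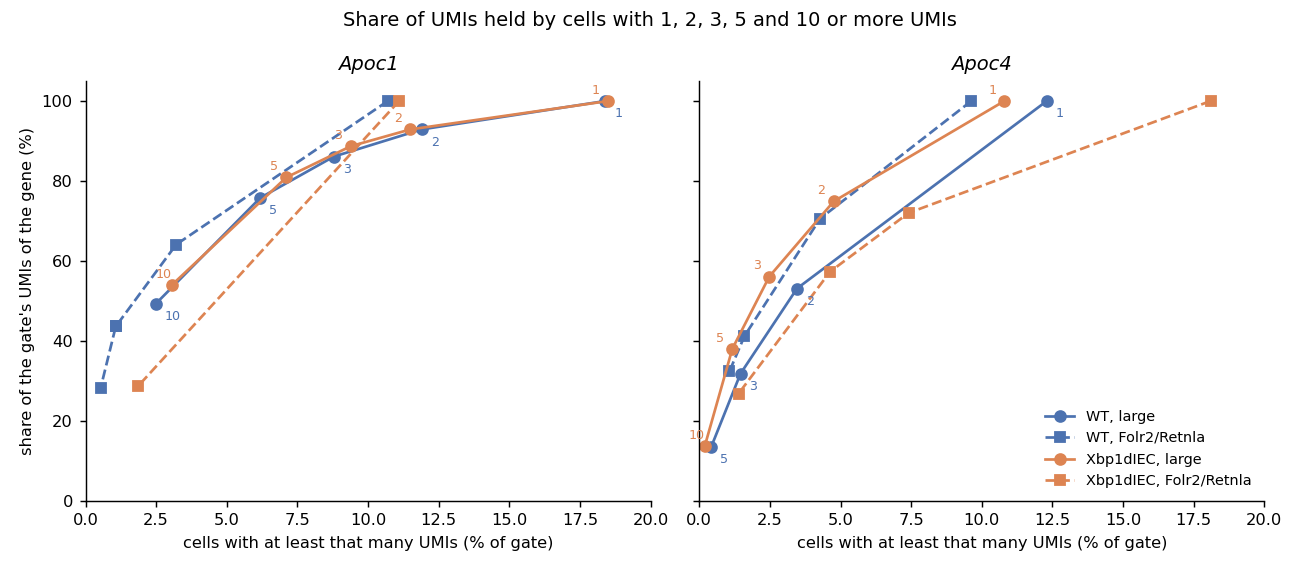
Share of a gate's Apoc1 or Apoc4 UMIs (vertical axis) held by the percentage of cells with at least 1, 2, 3, 5 or 10 UMIs (horizontal axis; small numerals mark these minima for large macrophages), by library, without thinning. The Apoc1 lines of the 2 libraries lie close together in large macrophages, where 6.19% (WT) and 7.11% (Xbp1dIEC) of cells have 5 or more UMIs, and the Apoc4 lines lie apart.

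Because Apoc4 was higher in Apoe-rich large macrophages, the promoters of both genes are shown, each from 250 bases before to 50 after the start (RefSeq, GRCm38.p6), 5′ to 3′ on the minus strand. The Apoe window is chr7:19699139-19699438 and the Apoc4 window chr7:19681411-19681710. Capitals mark the longest run that both share, 10 bases that begin 27 bases before the Apoe start and 24 bases before the Apoc4 start. These are the RefSeq starts. That of Apoc4 differs from the GENCODE start at chr7:19681479, so its distance depends on the annotation.
Apoe: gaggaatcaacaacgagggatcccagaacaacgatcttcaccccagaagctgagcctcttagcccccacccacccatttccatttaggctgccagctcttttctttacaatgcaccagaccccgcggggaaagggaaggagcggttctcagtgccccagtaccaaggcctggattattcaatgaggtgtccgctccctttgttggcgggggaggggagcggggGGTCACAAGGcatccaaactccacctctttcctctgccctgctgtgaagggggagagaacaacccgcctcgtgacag
Apoc4: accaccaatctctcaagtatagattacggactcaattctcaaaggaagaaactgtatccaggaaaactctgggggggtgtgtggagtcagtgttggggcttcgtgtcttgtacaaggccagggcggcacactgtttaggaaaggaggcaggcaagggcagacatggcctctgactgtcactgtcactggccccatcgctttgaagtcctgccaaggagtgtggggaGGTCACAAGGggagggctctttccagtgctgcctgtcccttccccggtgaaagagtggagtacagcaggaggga
The run GGTCACAAGG, on either strand, occurs in 0.128% of the 32851 promoter windows of this length, and not in those of Apoc2, Abca1 and Plin2. It was picked as the longest shared run, which is a match of letters, and it was not compared with a collection of known binding sites. Its share of windows does not show how often promoters share a run of this length. The nuclear receptor motif AGGTCA, searched on both strands, occurs in 16.3% of windows. It is found once in the Apoc4 window, where it overlaps the shared run, 2 times in that of Apoc2 and once in that of Plin2, and these letters are not in the Apoe and Abca1 windows. Sequences matched for 5 of the 10 genes.

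Apoc2 was barely detected. It had 25 UMIs in WT and 23 in Xbp1dIEC large macrophages, or 1.48 CPM (0.959 to 2.19) and 1.88 CPM (1.19 to 2.83), with never more than 1 UMI in a cell. Folr2/Retnla macrophages had 1 and 3 UMIs, and Cd209a cells 1 UMI in WT and 0 in Xbp1dIEC, which at 3 counts allows up to 4.21 CPM. A further gene model, which has the same symbol in the files and runs from Apoc4 into Apoc2 (Gm44805 in GENCODE, chr7:19671584-19681423) covers 98.1% of the bases of the 3′ end of Apoc2, where a 3′ library reads, and none of the 3′ end of Apoc4. That model had 0 UMIs in the myeloid gates, which at 3 counts allows up to 0.178 CPM in WT large macrophages. How reads of overlapping genes were counted is not given in the sources used here, so the level of Apoc2 is uncertain.

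Lpl, the secreted lipase that splits triglycerides, was at chr8:68880491-68907448 on the plus strand, and was highest in large macrophages. Its level was 439 CPM (429 to 449) in WT large macrophages, 276 (253 to 299) in Folr2/Retnla macrophages and 36.3 (23.5 to 53.5) in Cd209a cells. In Xbp1dIEC the same gates held 295 (286 to 305), 219 (198 to 241) and 56.2 (40.1 to 76.5) CPM. The order of the gates was the same in both libraries. In large macrophages the Xbp1dIEC level was below WT by a log2 ratio of -0.57 (-0.63 to -0.51), the opposite of Apoe, and the share of cells with an Lpl UMI among 2000 was 50.3% in WT and 39.0% in Xbp1dIEC, against 2.25% and 1.83% of B cells (84.7% and 72.1% of large macrophages before thinning). In Folr2/Retnla macrophages the ratio was -0.33 (-0.52 to -0.14). In Cd209a cells it was 0.62 (-0.12 to 1.38) from 25 and 40 UMIs, and its sign turned with the gate threshold. Lpl in B cells was at 17.3 and 13.4 CPM.

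The cholesterol exporters set large macrophages apart from B cells less than the other members did. Abca1, which loads cholesterol onto lipid-poor apolipoproteins, was at 55.5 CPM (52.0 to 59.1) in WT and 59.2 (55.0 to 63.7) in Xbp1dIEC large macrophages, a log2 ratio of 0.09 (-0.05 to 0.23). Folr2/Retnla macrophages had 32.8 and 48.8 CPM, a ratio of 0.56 (0.10 to 1.03) from 67 and 89 UMIs. Cd209a cells had 20.3 and 15.5 CPM. B cells had 17.8 and 14.7 CPM, with intervals that overlap those of Cd209a cells, whereas T cells had 6.38 and 5.21 CPM. The B cell level of Abca1 was 32.0% and 24.9% of that in large macrophages. For the macrophage genes Prg4, Adgre1, Lyz2, Fcna and Alox15 this share lay between 2.55% and 4.14%. For Apoe it was 8.77% and 6.43%, and for Retnla, a gene of the Folr2/Retnla gate, 44.8% and 69.6%. Set against Folr2/Retnla macrophages, the B cell level of Retnla was 1.90% and 1.66%. The source of these B cell counts was not tested.

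Abcg1, which exports cholesterol to mature particles, was higher in large macrophages than in B cells but was not separated from T cells. It was at 19.6 CPM (17.5 to 21.8) in WT and 15.2 (13.1 to 17.6) in Xbp1dIEC large macrophages, at 9.79 and 17.6 CPM in Folr2/Retnla macrophages, and at 18.9 and 25.3 CPM in Cd209a cells. B cells had 9.84 (8.11 to 11.8) and 9.99 (8.45 to 11.7) CPM, with intervals below those of large macrophages. T cells had 16.7 (10.4 to 25.6) and 14.6 (7.97 to 24.5) CPM, from 21 and 14 UMIs. The intervals of T cells and large macrophages overlapped in both libraries. Both exporters lie outside the apolipoprotein cluster, Abca1 at chr4:53030787-53159895 on the minus strand and Abcg1 at chr17:31057675-31117988 on the plus strand.

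Fabp4 and Fabp5 lie near each other on chromosome 3, Fabp5 at chr3:10012548-10016607 on the plus strand and Fabp4 at chr3:10204088-10208576 on the minus strand. Fabp4 was the member that differed least between the libraries in large macrophages, at 1220 CPM in each, a log2 ratio of 0.00 (-0.03 to 0.03). It was at 317 and 281 CPM in Folr2/Retnla macrophages, so large macrophages were higher by 1.94 (1.83 to 2.06) in WT and 2.12 (1.99 to 2.24) in Xbp1dIEC. After thinning, 80.4% of WT and 79.7% of Xbp1dIEC large macrophages had an Fabp4 UMI, against 30.5% and 29.2% of Folr2/Retnla macrophages and 4.44% and 3.88% of B cells. Before thinning, the large macrophage shares were 97.4% and 95.9%. Within the Folr2/Retnla gate, 18 of 187 WT cells and 19 of 216 Xbp1dIEC cells held 50% of the Fabp4 UMIs. Cd209a cells had 397 CPM (352 to 447) in WT and 275 (238 to 317) in Xbp1dIEC, a ratio of -0.53 (-0.80 to -0.26) that ranged from -1.74 to -0.05 over the other settings tried.

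Fabp5 was lower in Xbp1dIEC in both macrophage gates. In large macrophages it was at 640 CPM (628 to 653) in WT and 550 (537 to 563) in Xbp1dIEC, a ratio of -0.22 (-0.26 to -0.18). Folr2/Retnla macrophages had 395 (368 to 423) and 270 (247 to 295), a ratio of -0.55 (-0.71 to -0.39). Without those cycling cells that ratio was -0.30, and without cells that carried Cd209a cell genes -0.80. With the gates applied to thinned counts the sign in large macrophages turned, to 0.10, and with stricter gates the ratio there was -0.07. Cd209a cells went the other way, with 102 CPM (79.1 to 128) and 159 (131 to 191) from 70 and 113 UMIs. Their ratio was 0.64 (0.20 to 1.09), and its sign turned with looser gates. The share of Cd209a cells with an Fabp5 UMI before thinning was 27.5% in WT and 28.9% in Xbp1dIEC. The highest cell held 10 UMIs in WT and 28 in Xbp1dIEC. Cd209a cells with 10 or more UMIs of the large macrophage list held 77.1% (WT) and 81.4% (Xbp1dIEC) of that gate's Fabp5 UMIs. In the other cells of that gate the Fabp5 intervals overlapped, at 17.2 to 48.7 CPM in WT and 23.5 to 58.1 in Xbp1dIEC. Fabp4 and Fabp5 had the highest rank correlation over cells among these genes in large macrophages, with Spearman rho of 0.242 over 1649 WT cells and 0.214 over 1534 Xbp1dIEC cells, and 0.428 and 0.311 over the 187 and 216 Folr2/Retnla macrophages. Cells of 1 library share that library, and these values carry no test.

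Plin2, at chr4:86648386-86670060 on the minus strand, coats lipid droplets and was spread more evenly over large macrophages than Apoc1. It was highest in Folr2/Retnla macrophages, at 427 CPM (400 to 457) in WT and 411 (382 to 442) in Xbp1dIEC. Large macrophages had 357 (348 to 366) and 337 (327 to 347) CPM, and Cd209a cells 174 (144 to 208) and 149 (122 to 180). The ratio between the libraries was -0.06 (-0.20 to 0.09), -0.09 (-0.14 to -0.03) and -0.22 (-0.61 to 0.16) in these gates. The 10% of WT large macrophages richest in Plin2 held 26.6% of its UMIs, whereas the 10% richest in Apoc1 held 88.7% of the Apoc1 UMIs.

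**Figure D3:**
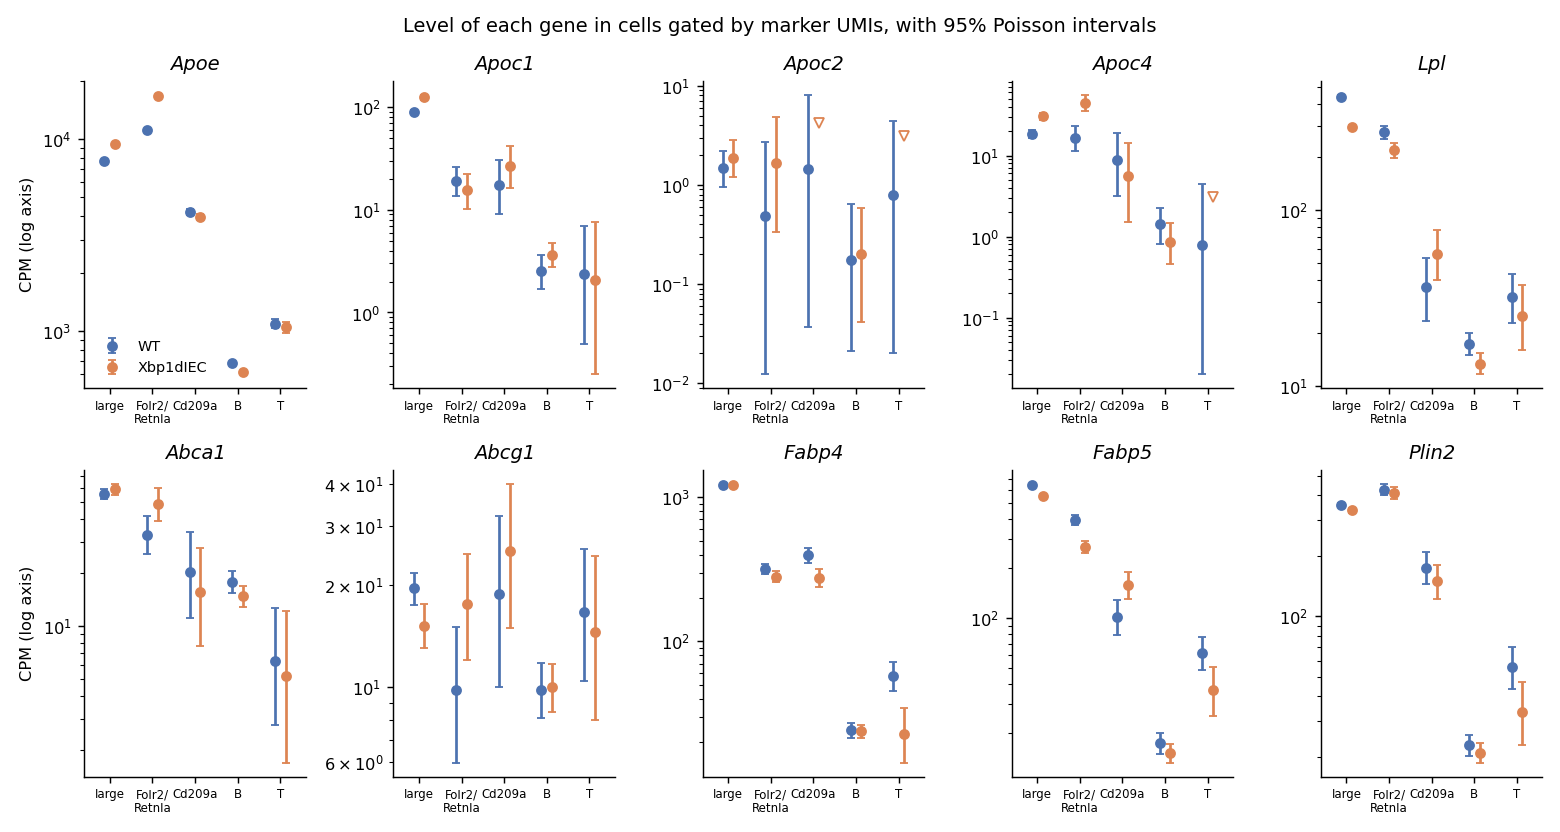
Level of each gene in CPM on a log axis, with 95% Poisson intervals, in large, Folr2/Retnla and Cd209a cells and in B and T cells of WT (blue) and Xbp1dIEC (orange); open triangles mark 0 UMIs and stand at the level of 3 UMIs. Apoe and Plin2 are highest in Folr2/Retnla macrophages, Apoc1, Lpl, Fabp4 and Fabp5 in large macrophages, and Abcg1 is about as high in T cells.

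Cells of the Cd209a gate differed widely in these genes, along with their large macrophage genes. In WT, 20 of its 91 cells had 10 or more UMIs of the large macrophage list and held 91.8% of the Apoe UMIs and 96.0% of the Fabp4 UMIs of the gate. In Xbp1dIEC, 17 of 97 cells held 86.6% and 94.4%. Those cells had Apoe at 16900 and 15300 CPM and 63.9 and 777 CPM of H2-Ab1, a class II gene. The other 71 WT and 80 Xbp1dIEC cells had H2-Ab1 at 15800 and 12200 CPM and Cd209a at 1680 and 1500 CPM. In them Apoe was at 446 CPM (392 to 507) in WT and 679 (612 to 751) in Xbp1dIEC, beside 678 and 610 CPM in B cells. Their Fabp4 was at 20.6 and 19.9 CPM, beside 24.3 and 23.8 in B cells. Plin2 was the member whose interval lay above that of B cells in both libraries, at 113 CPM (85.9 to 145) and 123 (95.6 to 156) beside 22.9 and 20.9. The limit of 10 UMIs was chosen after these data were seen.

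**Figure D4:**
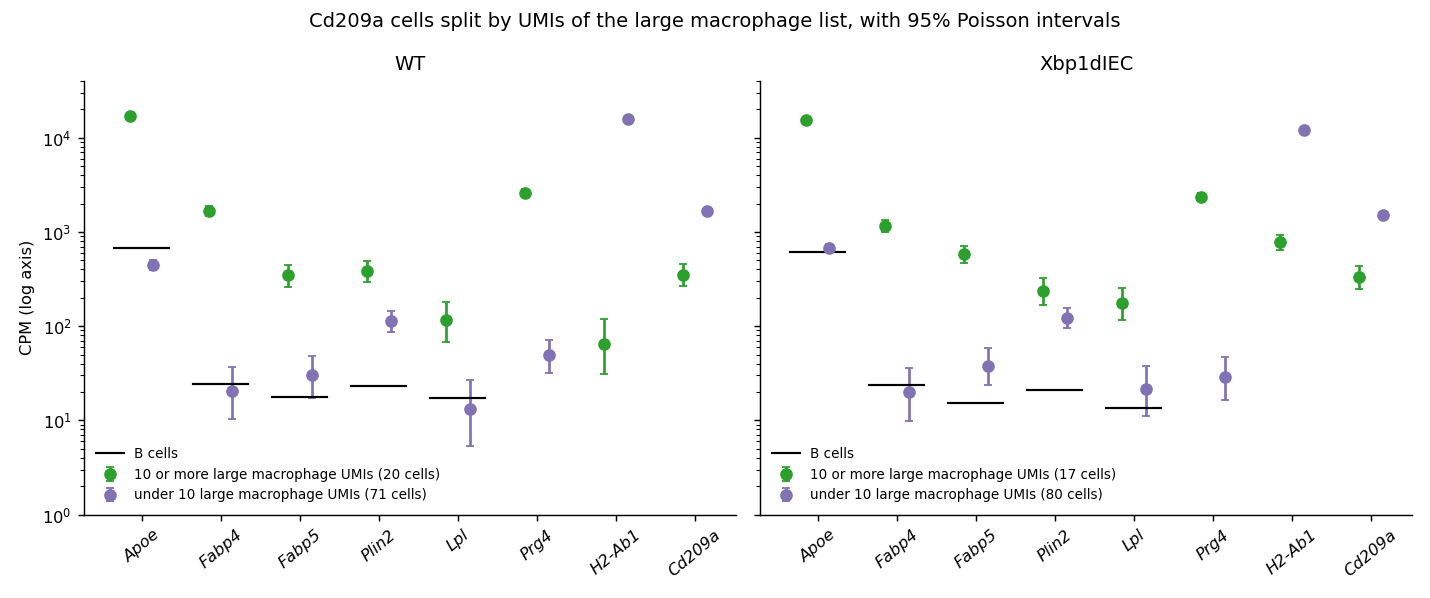
Level in CPM (log axis, 95% Poisson intervals) of 5 lipid genes and of Prg4, H2-Ab1 and Cd209a in cells of the Cd209a gate with 10 or more (green) and under 10 (purple) UMIs of the large macrophage list; black lines mark the level in B cells for the lipid genes. In the larger, class II-high set Apoe and Fabp4 are near the B cell line and Plin2 is above it.

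Within a library, a gene was called between gates when it differed by 1 or more on the log2 scale and had 30 or more UMIs and 20 or more CPM in the higher gate. Of the members that passed this filter, 2 of 7 in WT and 3 of 8 in Xbp1dIEC were higher in large than in Folr2/Retnla macrophages, beside 1.67% and 2.06% of all genes tested. These were Apoc1 and Fabp4, and in Xbp1dIEC also Fabp5. None was lower by that much, beside 2.56% and 2.78%. Against Cd209a cells, 6 of 7 members in WT and 8 of 9 in Xbp1dIEC were higher in large macrophages, beside 9.7% and 10.8%, and none was lower, beside 10.5% and 10.7%. Folr2/Retnla macrophages were higher than Cd209a cells in 4 of 6 and 5 of 8 members, beside 10.1% and 11.5%, with none lower, beside 5.51% and 5.0%. The genes were chosen with these levels known, so the shares are given for scale.

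**Figure D5:**
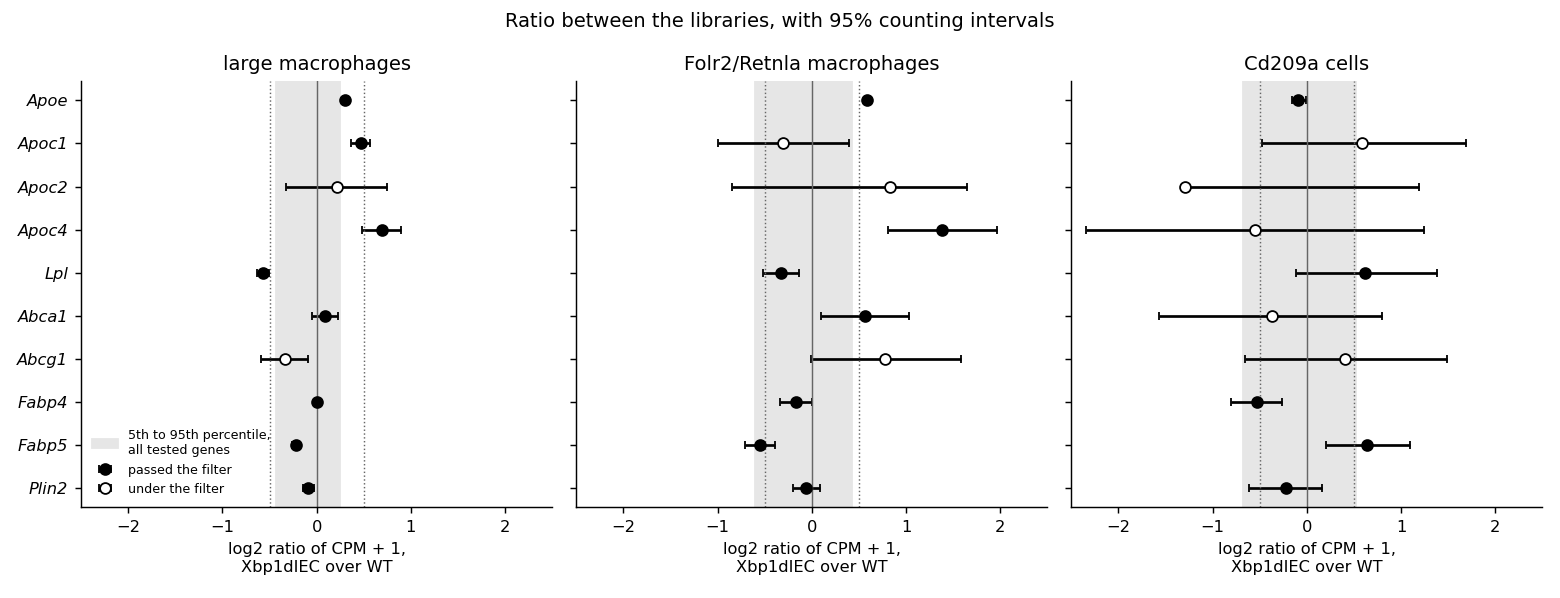
Log2 ratio of CPM + 1, Xbp1dIEC over WT, of each gene in the 3 gates, with 95% counting intervals; filled points passed the filter of 30 UMIs and 20 CPM, open points did not, dotted lines mark 0.5 and -0.5, and the grey band spans the 5th to the 95th percentile of all genes tested. Apoc4 and Apoe lie to the right in both macrophage gates and Lpl and Fabp5 to the left.

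Between the libraries, the members that passed a log2 ratio of 0.5 in either direction differed from gate to gate. In large macrophages 8 members passed the filter, of which Apoc4 was higher, beside 0.297% of the 4377 genes tested, and Lpl was lower, beside 2.67%. The median of the 8 was 0.04, and that of all genes tested -0.09. In Folr2/Retnla macrophages 3 of 7 were higher (Apoe, Apoc4 and Abca1), beside 3.62% of 4782 genes, and Fabp5 was lower, beside 8.76%. The median of the 7 was -0.06, and that of all genes -0.09. In Cd209a cells 2 of 5 were higher (Lpl and Fabp5), beside 5.4% of 2778 genes, and Fabp4 was lower, beside 11.4%. Cells with 10 or more large macrophage UMIs held between 70.0% and 96.0% of the UMIs of these last 3 genes. Apoc2 and Abcg1 passed the filter in no gate, nor did Apoc1 in the 2 smaller gates or Apoc4 and Abca1 in Cd209a cells.

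In the wider lipid pathways, more genes passed the log2 ratio of 0.5 downward than upward in each gate, as did more of all genes tested. Of 120 genes on lists of lipoprotein uptake, sterol sensing and efflux, sterol synthesis, lipid droplets, fatty acid use and synthesis, other apolipoproteins, other fatty acid binding proteins and lipase partners, 36 passed the filter in large macrophages. None was higher by 0.5 or more, beside 0.297% of all genes tested, and 2 were lower, Plin3 and Fabp7, beside 2.67%. Their median was -0.05. Plin3, a droplet coat protein related to Plin2, was at 25.3 CPM in WT and 13.0 in Xbp1dIEC, a ratio of -0.91 (-1.16 to -0.66). Fabp7, a further fatty acid binding protein, was at 258 and 176 CPM, a ratio of -0.55 (-0.63 to -0.48). Acadl, a mitochondrial enzyme of fatty acid oxidation, was at -0.44 (-0.63 to -0.26). At the other end stood Insig1, the sterol-responsive brake on sterol synthesis, at 0.48 (0.24 to 0.72), and Lsr, a lipoprotein receptor, at 0.36 (0.14 to 0.59).

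In Folr2/Retnla macrophages 37 genes of these lists passed the filter, of which 1 was higher and 6 lower, beside 3.62% and 8.76% of all genes tested, with a median of -0.11 against -0.09. Plin3 was again low, at 34.3 CPM in WT and 13.7 in Xbp1dIEC, a ratio of -1.26 (-1.93 to -0.62). Apool, which despite its name is a mitochondrial inner membrane protein, was at -1.32 (-2.16 to -0.52), and Stard3, a late endosomal sterol transporter, at -0.78 (-1.33 to -0.24). Acaca, the first enzyme of fatty acid synthesis, was at 0.56 (0.14 to 0.99). Pnpla2, a triglyceride lipase, and Mylip, a ubiquitin ligase, had ratios of 0.47 and 0.42 with intervals that include 0. In Cd209a cells 23 genes passed, 2 higher and 6 lower, beside 5.4% and 11.4%, with a median of -0.30 against -0.07. The lowest was again Plin3, at -1.42 (-2.33 to -0.56), then Apobec1, the apolipoprotein B mRNA editing enzyme, at -0.85 (-1.65 to -0.08) and Acadl at -0.82 (-1.68 to 0.01). The highest were Cyp51 at 0.75, Cd36 at 0.68 and Srebf2 at 0.35, each with an interval that includes 0.

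The genes most like each member across the 5 gates of both libraries were found by Pearson r over 10 log2(CPM + 1) sums, among 3262 genes. With so few sums, which share 2 libraries, r is high for many genes and is a description only. Apoe was followed most closely by Rab11fip5 (r = 0.993), Ctsb (0.992), which encodes the lysosomal protease cathepsin B, and Atp6v1b2 (0.991), a subunit of the vacuolar proton pump. Apoc1 was followed by Asz1 (0.988), Ltbp1 (0.982) and Pi16 (0.981). Asz1 was also among the genes higher in Apoc1-rich large macrophages, at 1.42 in WT and 1.31 in Xbp1dIEC. Lpl went with Icam2 (0.994), itself a marker of large macrophages, and then Naa38 (0.985) and Cnpy2 (0.984). Fabp4 went with Khk (0.991), the ketohexokinase of fructose use, and with Serpinb2 (0.986). Fabp5 went with Hp (0.985), which encodes haptoglobin, and with Alox15 and Padi4 (0.984 each). Plin2 went with Dhrs3 and Hacd4 (0.996 each) and Camk1 (0.995), and Abca1 with Nenf (0.982), Anapc13 (0.973) and Ncoa1 (0.971). Apoc2, Apoc4 and Abcg1 were under the minimum for this comparison.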

How the data were processed

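The deposited values were raw counts, whole-number UMIs per gene and cell barcode. Tools named in the submitters' processing notes are Cell Ranger 2.2.0 and Seurat 2.3.0, with mm10 as the build. Not given in the sources used here are the annotation, how overlapping genes were counted and whether barcodes had been filtered. Barcodes needed at least 500 UMIs and 200 genes, and a mitochondrial share below 10%, which removed 6 from WT and 20 from Xbp1dIEC. Scrublet, run on each library in scanpy 1.11.5 with 5% doublets assumed, called a further 140 (WT) and 113 (Xbp1dIEC), so that 6058 and 6113 cells remained.

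Cells were gated on raw UMIs as the report describes. B cells had 5 or more UMIs of a B cell list that includes Cd79a, Cd79b and Ms4a1 and none of Cd3d, Cd3e and Cd3g, and T cells 3 or more of the latter and at most 1 of the B cell list. Lymphoid UMIs were those of Cd79a, Cd79b, Ms4a1, Cd3d, Cd3e and Cd3g. UMIs were summed per gate and library and divided by the gate's total to give CPM, with exact Poisson intervals. Ratios had 1 CPM added and an exact conditional binomial interval, and for a share of cells the Clopper-Pearson interval is given. The calculation was tested on simulated gate sums drawn from a Poisson distribution. Such sums hold no clustering of UMIs in few cells, so that test does not show how the intervals fare for genes like Apoc1. With 1 library per genotype no test was made. PCR duplicates are collapsed by the UMIs, but cells of 1 pool are not replicates.

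Pathway genes were named as the 3 highest and 3 lowest ratios per gate among those tested, and genes most like a member as the 3 with the highest r where the highest sum reached 100 UMIs and 20 CPM. Some genes that these rules name are not reported here. The members, lists and rules were chosen with earlier results of these data known. Alternatives changed gates, filters, doublets, scaling, the value added, thinning and clusters in place of gates, and 2 of them, which leave out cells with genes of another gate, were chosen after seeing the data.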

Additional observations from a re-analysis of the deposited data

Results flagged for a closer look

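Apoe had a log2 ratio of Xbp1dIEC over WT of 0.30 in large macrophages and 0.59 in Folr2/Retnla macrophages, against -0.09 in Cd209a cells. In Cd209a cells this ratio ranged from -1.57 to 0.60 over the other settings tried, and the median of all genes tested there was -0.07. Fabp5 had 0.64 in Cd209a cells, against -0.22 in large and -0.55 in Folr2/Retnla macrophages. These differences between gates were not tested. Cd209a cells with 10 or more UMIs of the large macrophage list held 77.1% (WT) and 81.4% (Xbp1dIEC) of that gate's Fabp5 UMIs. In the other cells of that gate the Fabp5 intervals overlapped, at 17.2 to 48.7 CPM in WT and 23.5 to 58.1 in Xbp1dIEC. Without the Cd209a cells that carried large macrophage genes, Apoe in that gate had a ratio of 0.60, from 446 CPM in WT and 679 in Xbp1dIEC, beside 678 and 610 CPM in B cells.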

How the results depend on the processing

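Over all alternatives run, 265 of 359 values stayed within their counting interval or count limit, 89 moved further and 5 turned sign from a log2 ratio past 0.5. Of the 267 log2 ratios among them, 15 changed sign in all, the others from smaller ratios. Apoe, Apoc4 and Lpl kept their sign in both macrophage gates under every alternative. Their log2 ratios ranged from 0.21 to 0.46 (Apoe), 0.51 to 0.97 (Apoc4) and -0.62 to -0.48 (Lpl) in large macrophages, and from 0.40 to 0.72, 1.04 to 2.00 and -0.48 to -0.24 in Folr2/Retnla macrophages. Abca1 in Folr2/Retnla macrophages ranged from 0.16 to 0.89, and Apoe in Cd209a cells from -1.57 to 0.60.

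In large macrophages, the count of members higher was 2 in place of 1 when the median ratio of all genes was set to 0, and the count lower was 0 in place of 1 there and with stricter gates. In Folr2/Retnla macrophages the count lower was 0 in place of 1 with stricter or looser gates, the median set to 0, no cycling cells or clusters, and 2 without cells carrying Cd209a cell genes. The count higher there, 3, became 2 with multiple gates kept, under 5% mitochondrial UMIs, the mean of per-cell CPM, 10 added to CPM, no cycling cells or clusters. In Cd209a cells the count higher, 2, became 1 with stricter gates, no lymphoid exclusion, no cycling cells or no cells with large macrophage genes, and 0 with looser gates, thinned gates, multiple gates kept or the mean of per-cell CPM. The count lower there, 1, became 5 with looser gates, 2 with thinned gates or multiple gates kept, and 0 with no lymphoid exclusion, doublets kept, the median set to 0 or no cells with large macrophage genes. The members that pass the filter can change with the setting. The share of all genes past 0.5 was not computed for each setting, so these counts are not read against it. Lpl in Cd209a cells reversed to -0.74 with looser gates, -1.08 with thinned gates and -0.29 with multiple gates kept, and Fabp5 to -0.54 with looser gates. The ratio of thinned shares of Plin2 there, -0.60, reversed to 0.37 at 1000 UMIs. With the B cell level subtracted, 1 member, Abcg1, was lower in large macrophages than in Cd209a cells of Xbp1dIEC, in place of 0, and in WT the counts higher became 3 in place of 2, 7 in place of 6 and 5 in place of 4, by Abca1, Apoe and Abca1.

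With 10 or more UMIs as the filter, more pathway genes passed, 92 in place of 36 in large macrophages, 73 in place of 37 in Folr2/Retnla and 61 in place of 23 in Cd209a cells. Of these, 6 in place of 2 were lower in large macrophages, 18 in place of 6 in Folr2/Retnla and 20 in place of 6 in Cd209a cells. Genes higher numbered 3 in place of 1 in Folr2/Retnla and 6 in place of 2 in Cd209a cells. The cause of these changes was not tested beyond the number of genes that pass the filter. The share of all genes called under this filter was not computed. Under clusters no cluster fell to the Cd209a gate, so that alternative gave no value. No paired analysis was possible because each genotype has 1 library. Few UMIs limit Apoc2 in all gates and 5 of the 10 members in Cd209a cells. In large macrophages Abcg1 was under the CPM minimum, not the UMI minimum.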
